A study of Mus musculus with 46 samples.

Results

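Adult microglia carried trimethylated lysine 4 of histone H3 (H3K4me3) at many promoters where no acetylated lysine 27 of the same histone (H3K27ac) was called. These promoters were taken as H3K4me3 peaks of the first adult library that overlapped a peak of the second by at least 1 bp, lay within 1 kb of a transcription start site (TSS) of the RNA count table, and overlapped no H3K27ac peak in either adult library. Of 19346 H3K4me3 peaks in the first list, 17541 were in both lists and 11325 of those were promoters. The rule left 2774 promoters (24.5% of the 11325) without adult H3K27ac, here called H3K4me3-only promoters, and 8551 with it, called double-marked promoters. The H3K4me3-only promoters served 2827 genes of the 20999 in the count table: 2710 promoters lay at 1 gene and 64 at 2 genes. That table lists 1 transcript and so 1 TSS per gene, and promoters of other transcripts were not considered.

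All mice were male C57BL/6, and microglia, the resident macrophages of the brain, were isolated on ice in the presence of butyrate and flavopiridol and sorted on CD11b, CD45 and CD44. Adult untreated microglia, labelled Ki67-negative, came from wild-type mice of 60 and 65 days (H3K27ac and Rpb2, 2 libraries each), 75 days (H3K4me3, 2 libraries), 80 days (ATAC, 1 library) and 90 days (RNA, 2 libraries). Microglia of postnatal day 8 (PND8) were split into Ki67-positive and Ki67-negative cells, with 2 RNA and 2 H3K27ac libraries each, and 1 Rpb2 and 1 ATAC library of the positive cells. Repopulating microglia (Repop) were taken 3 days after the end of 17 days of diet with PLX5622, an inhibitor of the CSF1 receptor that depletes microglia. Their RNA (2 positive and 2 negative libraries) and ATAC (1 positive library) came from mice of 75 days with the drug started at 55 days, and their H3K27ac (2 positive libraries) from mice labelled 90 days with the drug started at 70 days. H3K27ac was also profiled in Ki67-positive and Ki67-negative microglia of mice of 90 days after 4 weeks of cuprizone, a diet that damages myelin (2 libraries each). The RNA of PND8 and Repop came from Ki67-rfp reporter mice and that of adults from wild-type mice, so genotype and group cannot be told apart in comparisons with Adult. Cells for ChIP were fixed and stained with an antibody against Ki67. Titles of the PND8 and Repop ATAC libraries name the reporter while their genotype field says wild type. The extraction text calls the 2 RNA libraries of a condition independent biological replicates. P-values weigh a difference against the spread between replicate libraries, estimated over all RNA groups in 1 fit.

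H3K4me3 is laid down at CpG-rich promoters and is found at active promoters as well as at silent ones held ready or repressed by Polycomb complexes, where it can sit beside other marks. H3K27ac is added by acetyltransferases at active promoters and enhancers and is commonly lost when transcription stops. Rpb2 is the second largest subunit of RNA polymerase II, so its peaks report the polymerase itself, and ATAC peaks report DNA that a transposase can reach. Ki67, encoded by Mki67, is a protein of cycling cells, and microglia proliferate in the newborn brain, after depletion and during demyelination.

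The sequences below show the kinds of promoter the results turn on. Cenpw, Cdkn3, Ccnb1 and Depdc1a, all cell-cycle genes, are shown as genes that gained H3K27ac in PND8 and Repop and had RNA near 0 in Adult, and were chosen by their fitted RNA difference. Capitals in them mark CCAAT and the CHR element, searched as TTTGAA, each on both strands. In Cenpw the matches of the 2 motifs overlap, and in Ccnb1 the capitals are 2 CCAAT matches with no CHR. All sequences are of 300 bases, 250 before and 50 after the start, from RefSeq on GRCm38.p6. Cenpw lies at chr10:30200491-30200790 (minus strand), Cdkn3 at chr14:46760291-46760590 (plus), Ccnb1 at chr13:100786437-100786736 (minus) and Depdc1a at chr3:159495183-159495482 (plus).
Cenpw: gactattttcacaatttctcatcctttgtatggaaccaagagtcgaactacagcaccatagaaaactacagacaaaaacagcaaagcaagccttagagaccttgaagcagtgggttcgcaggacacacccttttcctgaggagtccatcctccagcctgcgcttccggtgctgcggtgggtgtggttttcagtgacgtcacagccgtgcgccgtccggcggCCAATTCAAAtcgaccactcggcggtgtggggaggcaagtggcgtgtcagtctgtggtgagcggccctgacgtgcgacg
Cdkn3: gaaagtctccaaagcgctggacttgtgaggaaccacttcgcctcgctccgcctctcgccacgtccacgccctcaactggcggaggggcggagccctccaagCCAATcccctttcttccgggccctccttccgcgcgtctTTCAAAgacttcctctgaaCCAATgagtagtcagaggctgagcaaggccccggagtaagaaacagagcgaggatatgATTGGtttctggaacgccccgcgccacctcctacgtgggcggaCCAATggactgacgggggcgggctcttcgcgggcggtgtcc
Ccnb1: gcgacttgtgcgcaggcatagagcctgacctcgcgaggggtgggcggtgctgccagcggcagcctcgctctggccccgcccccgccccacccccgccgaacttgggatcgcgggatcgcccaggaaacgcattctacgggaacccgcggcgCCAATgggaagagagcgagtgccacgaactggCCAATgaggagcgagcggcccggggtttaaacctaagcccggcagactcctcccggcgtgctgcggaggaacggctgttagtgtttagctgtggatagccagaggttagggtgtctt
Depdc1a: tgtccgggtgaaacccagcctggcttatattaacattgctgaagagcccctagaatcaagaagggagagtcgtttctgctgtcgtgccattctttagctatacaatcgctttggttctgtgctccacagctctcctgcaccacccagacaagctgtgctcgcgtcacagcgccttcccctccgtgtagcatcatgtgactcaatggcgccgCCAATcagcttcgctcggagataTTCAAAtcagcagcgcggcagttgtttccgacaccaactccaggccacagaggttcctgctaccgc

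Oas1a (chr5:120907476-120907775, minus strand) and Rsad2 (chr12:26456403-26456702, minus strand) are interferon-induced genes shown because their promoters hold GAAA, any 2 bases and GAAA, the core of the element bound by interferon-activated factors. Capitals mark that motif on either strand. Oas1a holds 2 overlapping matches and Rsad2 holds 1. Sox13 (chr1:133424163-133424462, minus strand) and Hey2 (chr10:30842734-30843033, minus strand) encode developmental transcription factors and are shown because they had high H3K4me3 and no H3K27ac peak in any library. Capitals in those mark CG dinucleotides, 40 in Sox13 and 29 in Hey2.
Oas1a: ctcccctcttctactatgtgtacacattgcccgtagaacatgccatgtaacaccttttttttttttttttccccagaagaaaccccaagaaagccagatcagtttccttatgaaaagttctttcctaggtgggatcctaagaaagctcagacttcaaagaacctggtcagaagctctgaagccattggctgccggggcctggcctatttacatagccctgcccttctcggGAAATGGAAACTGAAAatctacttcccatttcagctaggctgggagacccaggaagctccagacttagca
Rsad2: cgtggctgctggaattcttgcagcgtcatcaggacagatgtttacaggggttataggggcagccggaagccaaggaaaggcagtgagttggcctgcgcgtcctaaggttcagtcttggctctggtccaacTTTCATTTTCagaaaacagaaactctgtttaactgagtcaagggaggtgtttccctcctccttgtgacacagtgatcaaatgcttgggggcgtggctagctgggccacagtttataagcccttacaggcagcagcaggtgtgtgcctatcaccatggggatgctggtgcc
Sox13: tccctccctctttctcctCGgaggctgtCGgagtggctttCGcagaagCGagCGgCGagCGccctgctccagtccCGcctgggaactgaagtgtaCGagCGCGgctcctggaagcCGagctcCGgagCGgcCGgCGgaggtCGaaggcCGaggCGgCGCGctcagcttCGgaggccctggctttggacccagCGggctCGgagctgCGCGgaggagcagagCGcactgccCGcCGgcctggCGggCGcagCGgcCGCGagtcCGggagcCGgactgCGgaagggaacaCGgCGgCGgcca
Hey2: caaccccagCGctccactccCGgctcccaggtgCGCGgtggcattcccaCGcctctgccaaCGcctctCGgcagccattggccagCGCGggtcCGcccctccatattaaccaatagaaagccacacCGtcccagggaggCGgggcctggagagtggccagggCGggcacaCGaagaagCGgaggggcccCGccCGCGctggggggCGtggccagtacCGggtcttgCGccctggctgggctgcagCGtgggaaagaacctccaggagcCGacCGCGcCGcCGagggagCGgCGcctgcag

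Of the 2827 genes, 2058 had a RefSeq promoter whose start matched that of the count table within 500 bp. The ratio of observed to expected CG had a median of 0.708 at these promoters, against 0.813 at double-marked promoters and 0.205 at genes without H3K4me3. H3K4me3-only promoters were thus CpG-rich, and 67.6% had a ratio of at least 0.6, against 81.9% and 9.96%. CHR matches were in 10.1% of them, 10.8% of double-marked promoters, 22.3% of promoters without H3K4me3 and 15.2% of all 15910 promoters in the table. CCAAT was in 35.3%, 39.3%, 39.0% and 38.7% in the same order. The interferon motif was in 3.01%, 2.93%, 4.22% and 3.45%. Of 11 promoters of G2/M genes with sequence, 6 held CHR and 10 held CCAAT, and of 7 promoters of interferon genes 4 held the interferon motif. A match describes letters in the window and is not evidence of binding.

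H3K4me3 at these promoters was lower and narrower than at double-marked ones. Peak heights are the authors' tag counts over the whole peak, normalised to 10000000 tags. The median height was 120.8 tags in the first library and 117.1 in the second, against 716.0 and 718.4 at double-marked promoters. The median width was 1140 bp against 1765 bp, and the peak covered the TSS itself at 89.8% against 98.0% of promoters. Only 41 H3K4me3-only promoters reached the double-marked median height. These values help to define the set and carry no test. The nearest adult H3K27ac peak lay at a median of 39525 bp, with 31 promoters within 1 kb and 238 (8.58%) within 5 kb. Of the genes, 466 (16.5%) carried an adult H3K27ac peak elsewhere over the gene body. The promoters just inside the rule were those of Arl14, Sept9 and Aspm, 12, 27 and 59 bp from an adult H3K27ac peak, and those just outside were Kifc1, Fbxo48 and Rhof, which overlapped one by 11, 28 and 78 bp. On distance to the TSS, Gata2 (998 bp) and Dppa3 (994 bp) were just inside and Nyap1 (1002 bp) and Slc2a7 (1020 bp) just outside.

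The set spanned several kinds of gene, and it held 2827 of all 20999 genes of the count table. It held 124 of 268 developmental transcription factors (46.3%), 77 of 184 genes of developmental signalling (41.8%) and 110 of 340 ion channel and synapse genes (32.4%). Of 421 zinc finger genes of the Zfp series it held 68 (16.2%). It held 16 of 54 G2/M genes (29.6%), 13 of 43 S phase genes (30.2%) and 8 of 52 interferon-response genes (15.4%). Of 36 genes of disease-associated or neonatal activation of microglia it held 8 (22.2%). None of 33 homeostatic microglia genes, 80 ribosomal protein genes or 1456 olfactory and vomeronasal receptor genes was in the set. Of 28 imprinted genes 11 were in it, among them Igf2, Nnat and Mest.

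RNA library totals were 6865903 to 10287876 counts. H3K27ac lists held 19572 to 30539 peaks, and the first adult H3K27ac list was the smallest, with 32.6% of its tags in peaks against 45.5 to 69.7% in the others. Summed levels of 8 microglia markers were 6633 to 8677 CPM (counts scaled by library size and a TMM factor) in the 10 RNA libraries. The 7 markers of border macrophages summed to 64.5 to 79.8 CPM in Adult, 607 to 859 in PND8 and 26.2 to 43.0 in Repop. The 5 erythroid markers summed to 0.463 to 7.21, 23.1 to 75.4 and 0.416 to 1.37 CPM, and the 9 monocyte or neutrophil markers to 228 and 69.3 CPM in Adult and at most 9.26 elsewhere. The 7 astrocyte markers summed to 240 and 248 CPM in Adult and 410 to 567 in Repop. In PND8 they differed between replicates, at 97.1 and 430 CPM in Ki67-negative and 61.1 and 376 in Ki67-positive cells. Sums of the 9 neuron markers ranged from 2.43 to 10.5 CPM. In bulk RNA, fewer cells of a type and less RNA per cell cannot be told apart.

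H3K27ac appeared at many of these promoters in the libraries of other settings. In the first and second library, peaks were called at 517 and 641 promoters in PND8 Ki67-negative cells, 669 and 868 in PND8 Ki67-positive cells, 800 and 559 in Repop Ki67-positive cells, 177 and 611 in cuprizone Ki67-negative cells, and 377 and 824 in cuprizone Ki67-positive cells. These are 6.38 to 31.3% of the 2774, while double-marked promoters had a peak at 92.1 to 99.5%. Both libraries agreed on 469 promoters (16.9%) in PND8 Ki67-negative cells, 645 (23.3%) in PND8 Ki67-positive, 502 (18.1%) in Repop, 164 (5.91%) in cuprizone Ki67-negative and 367 (13.2%) in cuprizone Ki67-positive cells. Over all 11325 H3K4me3 promoters, the shares with a peak in both libraries were 78.1%, 80.2%, 76.6%, 70.9% and 74.4% in the same order. Since the rule set adult H3K27ac at 0 peaks, these counts could only rise and are a description. Replicates differed widely in cuprizone, where the second Ki67-negative list held 30539 peaks and the first 24082. The first adult H3K27ac list had a code in its file header that no other list had. The second adult list shared its code with the second PND8 lists and the first Repop list, and no cuprizone list shared a code with Adult. Code and group thus cannot be fully told apart for H3K27ac.

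**Figure D1:**
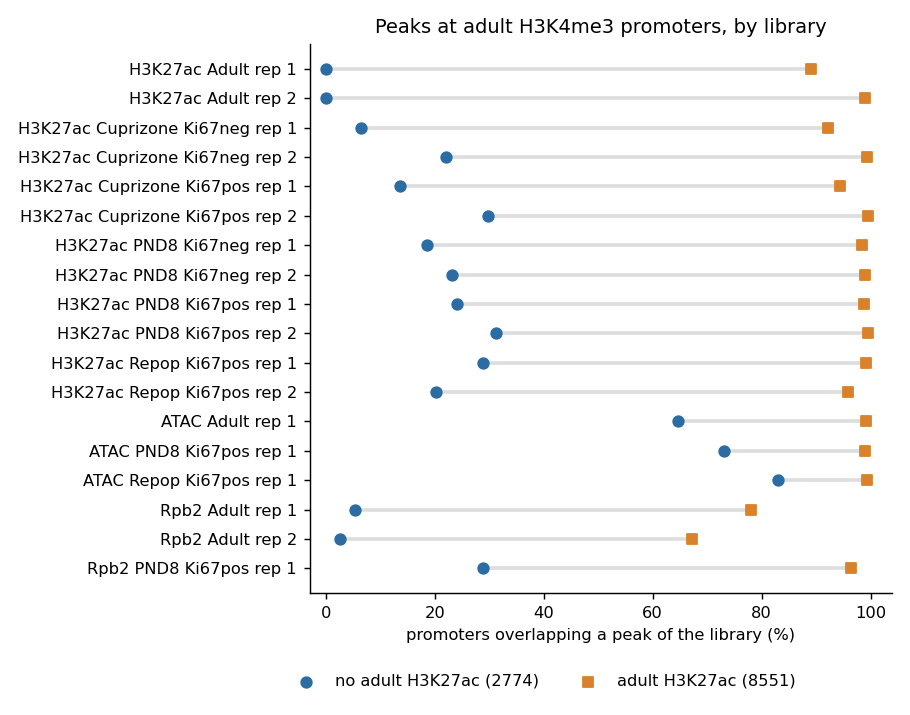
Percent of promoters that overlap a peak (x axis) in each ChIP and ATAC library (y axis), for the 2774 H3K4me3-only promoters (circles) and the 8551 double-marked promoters (squares). Circles of H3K27ac libraries outside Adult lie between 6.38 and 31.3%, while ATAC circles lie between 64.6 and 83.1%.

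A majority of the set never gained the mark: 1657 promoters (59.7%) had no H3K27ac peak in any of the 10 libraries outside Adult, 83 (2.99%) had one in all 10, and the rest were spread over 1 to 9 libraries. The share that gained it rose with adult H3K4me3. In the lowest quartile of H3K4me3 height (6.23 to 47.5 tags), 10.9% had H3K27ac in any other library, and in the next quartiles 21.5%, 44.7% and 84.2%, the last with 276.6 to 1363.5 tags. Adult ATAC peaks rose over the same quartiles from 28.7% to 54.2%, 79.8% and 95.8%, and PND8 Rpb2 peaks from 5.60% to 14.0%, 31.4% and 64.4%. The median adult RNA level of the genes was 0.0277, 0.0855, 0.283 and 2.93 CPM per kb of transcript. All of these shares rose at each step, and promoters of a quartile share libraries and depth, so they describe one set of libraries.

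**Figure D2:**
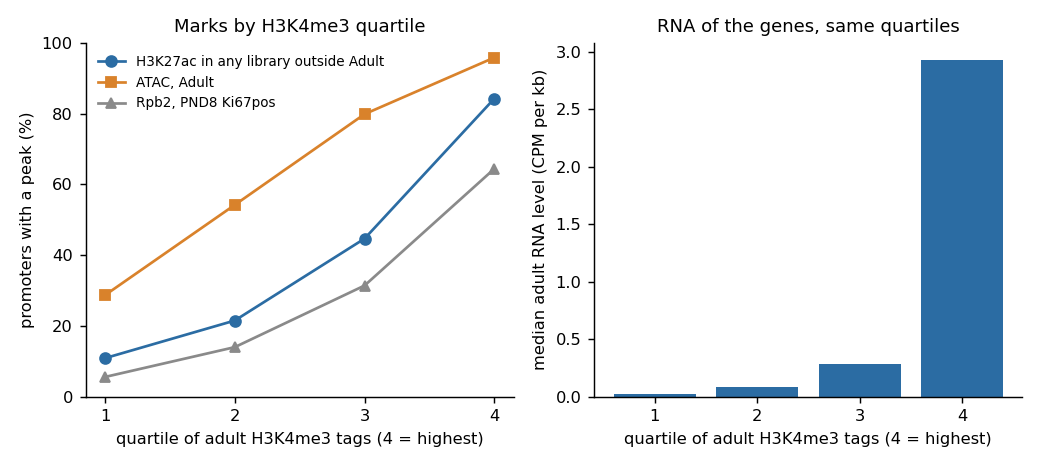
Left, percent of H3K4me3-only promoters with a peak by quartile of adult H3K4me3 height (1 lowest, 4 highest), for H3K27ac in any library outside Adult, adult ATAC and PND8 Rpb2; right, the median adult RNA level of the genes in CPM per kb. H3K27ac goes from 10.9% to 84.2% and RNA from 0.0277 to 2.93 CPM per kb.

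Ki67-positive cells had more of these promoters acetylated than Ki67-negative cells of the same setting and replicate number. In PND8, 204 promoters in the first pair and 261 in the second had a peak in the positive library alone, against 52 and 34 in the negative library alone. In cuprizone the counts were 244 and 269 against 44 and 56. Among all 11325 promoters, the shares with a peak in the positive library alone were 2.48%, 2.78%, 5.8% and 2.73%, and in the negative library alone 0.839%, 0.442%, 2.33% and 0.786%. These shares include the H3K4me3-only promoters. Double-marked promoters alone went the same way in all 4 pairs. Their counts were 77, 54, 413 and 40 positive-only against 43, 16, 220 and 33 negative-only, so the direction was not particular to the set. The positive lists held 0.975, 1.03, 1.04 and 0.992 times as many peaks as their negative partners. With peaks at least 8-fold over input the counts were 190 against 88, 320 against 79, 57 against 21 and 287 against 97, so the direction was the same in all 4 pairs. At least 3 of the 4 pairs showed a positive-only peak at 61 promoters and a negative-only peak at 3.

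**Figure D3:**
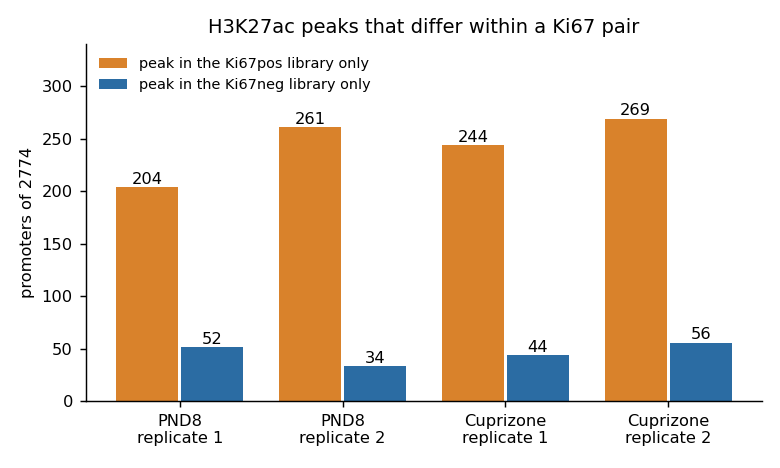
Number of the 2774 H3K4me3-only promoters with an H3K27ac peak in the Ki67-positive library alone (first bar) or the Ki67-negative library alone (second bar), for the 4 pairs of libraries on the x axis. Positive-only bars reach 204 to 269 and negative-only bars 34 to 56.

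H3K27ac was called at 5 promoters in all 4 Ki67-positive libraries and in none of the 4 Ki67-negative libraries of PND8 and cuprizone, and none showed the reverse. They serve Cdc25c, a phosphatase that starts mitosis, Esco2, an acetyltransferase of sister chromatid cohesion, Id1, an inhibitor of helix-loop-helix factors, Acot11, an acyl-CoA thioesterase, and the pair Ccdc116 and Ydjc. These genes were named after their values were seen. Of the 6 genes, Cdc25c and Acot11 were higher in PND8 Ki67-positive than Ki67-negative cells. For Acot11 the difference was 1.00 ± 0.27 (log2, SE; edgeR, adjusted p = 0.0477), and it was not called without the first PND8 Ki67-negative or either PND8 Ki67-positive library. Cdc25c was at 0.116 and 0.489 CPM in Adult, 2.23 and 6.15 in PND8 Ki67-negative, 39.4 and 40.5 in PND8 Ki67-positive, 4.68 and 6.55 in Repop Ki67-negative and 23.9 and 34.5 in Repop Ki67-positive cells. Its RNA was thus highest in both positive groups, without overlap with the negative ones, and higher in PND8 Ki67-positive than Ki67-negative cells by 3.19 ± 0.33 (log2, SE; edgeR, Benjamini-Hochberg adjusted p = 8.52e-05). The RNA of Esco2 followed another pattern, at 1.16 and 1.83 CPM in Adult and 27.2 to 46.1 CPM in all 8 other libraries, with a PND8 difference between positive and negative cells of 0.34 ± 0.19 (adjusted p = 0.366).

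Open chromatin was common at the set and polymerase rare. ATAC peaks were called at 1791 promoters in Adult (64.6%), 2025 in PND8 (73.0%) and 2304 in Repop (83.1%), where all H3K4me3 promoters gave 90.6%, 92.5% and 95.3%. The ATAC lists themselves grew in the same order, from 71642 to 75296 and 95411 peaks, and each group had 1 library, so the order has no replicate check. Rpb2 peaks were called at 146 (5.26%) and 72 (2.60%) promoters in the adult libraries and at 799 (28.8%) in PND8 Ki67-positive cells. All H3K4me3 promoters gave 60.2%, 51.4% and 79.8%. The PND8 Rpb2 list held 31602 peaks and the adult lists 14550 and 10544. Promoters without H3K27ac in any library had adult ATAC peaks at 45.9% and PND8 Rpb2 peaks at 6.64%, and those with H3K27ac in all 10 libraries at 97.6% and 81.9%.

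In adult RNA most of these genes were low. The median level was 0.215 and 0.203 CPM per kb in the 2 adult libraries, against 19.3 in both for double-marked promoters. At least 1 CPM per kb was reached in both libraries by 858 genes (30.4% of 2827), against 94.6% of double-marked genes and 7.76% of genes without H3K4me3. The 858 included some of the more abundant genes of microglia. Mlxipl, a glucose-responsive transcription factor, was at 493.9 and 493.2 CPM in Adult and 297 to 552 in the other libraries, with no H3K27ac at this promoter in any library but an adult peak over its gene body. An adult H3K27ac peak over the gene body was found for 223 of the 858 genes (26.0%) and for 243 of the other 1969 (12.3%). Apoe, the lipid carrier, was at 149 and 173 CPM in Adult with an H3K4me3 height of 41.3 and 29.1 tags.

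Between groups, RNA was compared by edgeR (quasi-likelihood), the p-values were adjusted over 12230 tested genes by Benjamini-Hochberg, and a gene was called at an adjusted p under 0.05. Of the 2827 genes, 1619 had enough counts to be tested. Genes low in Adult could pass that filter through another group alone. In PND8 Ki67-positive cells 500 genes of the set were higher than in Adult and 304 lower, and 25.1% and 24.3% of all tested genes were called higher and lower, 49.5% together. In PND8 Ki67-negative cells the counts were 560 and 249 (25.4% and 21.4% of all tested genes, 46.8% together). In Repop Ki67-positive cells they were 470 and 252 (23.9% and 21.0%, 44.9% together), and in Repop Ki67-negative cells 462 and 219 (21.5% and 17.6%, 39.2% together). These 4 comparisons share the adult libraries. The median log2 difference of the tested genes of the set was 0.25, 0.35, 0.13 and 0.13, and that of all tested genes 0.00, 0.03, -0.01 and -0.01. The adult RNA libraries also shared a code in the file headers that no other RNA library had, so code and group cannot be told apart.

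Ki67-positive and Ki67-negative cells differed at fewer genes of the set. In PND8 80 genes were higher and 89 lower in positive cells (2.75% and 3.15% of all tested genes, 5.9% together), and in Repop 61 were higher and 16 lower (1.87% and 0.867%, 2.74% together). The balance in PND8 turned with single libraries: it was 95 higher and 85 lower without the second PND8 Ki67-negative library, 70 and 46 without the first and 48 and 19 without the second PND8 Ki67-positive library. In all, 67 genes were called in the last case, and without the first Repop Ki67-negative or the second Repop Ki67-positive library 36 and 42 were called in Repop. For the test of the difference between both contrasts, edgeR called 0 of 1619 genes, with 114 (7.04%) at an unadjusted p under 0.05. Between settings, 285 genes were higher and 267 lower in Repop than in PND8 among Ki67-positive cells (16.7% and 14.2% of all tested genes, 30.9% together). That balance was 262 and 300 with library sizes alone as scaling, and 192 and 198 without the second PND8 Ki67-positive library. There were 276 higher and 365 lower among Ki67-negative cells (18% and 18.6%, 36.6% together). PND8 and Repop RNA libraries shared a header code, but each setting also had a code that the other lacked. Code and setting thus cannot be fully told apart. With the header code as a term, 469 of 552 calls were kept in positive cells and 553 of 641 in negative cells.

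Among tested genes, more of those whose promoter gained H3K27ac were called higher than lower. Of the 680 genes of the 645 promoters acetylated in both PND8 Ki67-positive libraries, 296 were higher and 70 lower than in Adult, with a median of 0.52 among the 636 tested. Of the 1895 genes without the mark in those libraries, 155 were higher and 186 lower, with a median of -0.07 among the 775 tested. Over all tested genes 25.1% were higher and 24.3% lower. A smaller share of the unmarked genes had enough counts for the test, so the counts of both sets are to be read against the genes tested. For Repop the counts were 249 higher and 51 lower of 533 genes with the mark (506 tested), and 125 and 157 of 1928 without it (806 tested), with medians of 0.54 and -0.19, beside 23.9% and 21.0% of all tested genes. The count of lower genes with the mark was less stable than that of higher genes: it was 46, 43 and 42 in PND8 without the first adult, the first or the second PND8 Ki67-positive RNA library, and 32 in Repop without the second adult library. Without the second Repop Ki67-positive library, 94 Repop genes without the mark were lower. For polymerase, 240 genes were higher and 73 lower in PND8 Ki67-positive cells than in Adult of the 674 genes (587 tested) that had an Rpb2 peak in PND8 and in neither adult library, and 194 and 195 of the 1961 genes (859 tested) without an Rpb2 peak in any library.

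Genes whose promoters were acetylated in Ki67-positive and not in Ki67-negative cells of PND8 were called higher and lower in the positive cells equally often. Peaks in Repop or cuprizone did not exclude a promoter here. Of the 78 genes (69 tested) whose 76 promoters had a peak in the positive library alone in both PND8 pairs, 4 were higher and 4 lower in positive cells, with a median of -0.01, where 2.75% and 3.15% of all tested genes were called. Those counts of 4 and 4 are small and were not rerun with single libraries left out. Of the 461 genes (434 tested) acetylated in all 4 PND8 libraries, 50 were higher and 30 lower, and of the 1858 genes (747 tested) acetylated in none, 7 and 36. Without the second PND8 Ki67-positive RNA library the last 2 pairs of counts were 32 and 7, and 5 and 10, and without the first they were 47 and 13, and 3 and 24. Without the second PND8 Ki67-negative library the last pair was 11 and 51.

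G2/M genes were higher in PND8 and Repop than in Adult, and most were higher in Ki67-positive than in Ki67-negative cells. The 16 in the set are Mki67 itself and Ccnb2, Cdk1, Tpx2, Dlgap5, Cdc25c, Nek2, Psrc1, Gtse1, Nusap1, Ube2c, Ckap2, Cenpf, Aurkb, Pimreg and Bub1, which act in entry into mitosis, the spindle, the kinetochore and protein turnover. All 16 were higher than in Adult in PND8 Ki67-positive (median 6.38), PND8 Ki67-negative (4.32), Repop Ki67-positive (6.23) and Repop Ki67-negative cells (4.24). Shares of all tested genes called higher than in Adult were 25.1%, 25.4%, 23.9% and 21.5% in the same order. Between sorts, 2.75% of all tested genes were higher in positive cells of PND8 and 1.87% in those of Repop. All 16 were also higher in positive than negative cells of PND8 (median 2.01), and 14 were in Repop (1.65). With single libraries left out these last counts were 14 to 16 and 11 to 15. Between Repop and PND8 positive cells edgeR called 3 lower and 0 higher (0 higher also at an unadjusted p under 0.05), and 14 were lower with the header code as a term. Without that term, 14.2% of all tested genes were lower and 16.7% higher. H3K27ac was called in both libraries at 2 of the 16 promoters in cuprizone Ki67-negative, 14 in cuprizone Ki67-positive, 14 in PND8 Ki67-negative, 16 in PND8 Ki67-positive and 15 in Repop cells. The shares of all H3K4me3-only promoters were 5.91%, 13.2%, 16.9%, 23.3% and 18.1% in the same order. All 16 had ATAC peaks in each of the 3 libraries, Adult included, while Rpb2 was called at 3 and 1 in Adult and at 16 in PND8.

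Mki67, the gene of the sort marker, was at 13.4 and 11 CPM in Adult, 242 and 282 in PND8 Ki67-negative, 919.6 and 1107 in PND8 Ki67-positive, 336 and 463 in Repop Ki67-negative and 930.1 and 1087 in Repop Ki67-positive cells. Positive libraries were thus the highest, and the Ki67-negative libraries of both settings still lay far above Adult. The rise over Adult was 6.37 ± 0.20 in PND8 Ki67-positive cells (log2, SE; edgeR, adjusted p = 1.35e-10) and 4.42 ± 0.19 in PND8 Ki67-negative cells (adjusted p = 3.1e-09). Its H3K27ac height was none and 67.6 tags in cuprizone Ki67-negative, 142 and 260.0 in cuprizone Ki67-positive, 117 and 132 in PND8 Ki67-negative, 309.7 and 332 in PND8 Ki67-positive and 247 and 308 in Repop cells. In each pair the positive library was above its negative partner.

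Ccnb1, the cyclin that drives entry into mitosis, was at 0.463 and 0.122 CPM in Adult, 12.6 and 18.2 in PND8 Ki67-negative, 81.2 and 89.7 in PND8 Ki67-positive, 12.5 and 15.7 in Repop Ki67-negative and 56.1 and 75.9 in Repop Ki67-positive cells. No group of positive libraries overlapped with a negative one. Positive exceeded negative cells by 2.46 ± 0.20 in PND8 and 2.24 ± 0.20 in Repop (log2, SE; edgeR, adjusted p = 1.42e-05 and 6.38e-05). Its promoter, shown above, had H3K27ac heights of 145.0 and 175 tags in PND8 Ki67-positive against 20.9 and 12 in PND8 Ki67-negative cells, and 96.2 and 91.0 in Repop.

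Cenpw, a kinetochore protein, had 0 counts in both adult libraries, where 3 counts would be 0.347 and 0.367 CPM, and 2.60 to 7.74 CPM in the 8 others. Cdkn3, a phosphatase acting on cyclin-dependent kinases, was at 0 and 0.122 CPM in Adult, 4.21 to 6.25 in the negative and 18.5 to 27.2 in the positive libraries. Depdc1a, a protein of cycling cells, was at 0 and 0.122 CPM in Adult, 3.23 to 5.23 in the negative and 12.5 to 15.5 in the positive libraries. All 3 were near the floor of detection in Adult while their promoters carried 169 to 351 H3K4me3 tags and adult ATAC peaks of 52.4, 437 and 216 tags. Cdc25b, a phosphatase that activates cyclin-dependent kinases, was at 5.74 to 11.7 CPM in Adult and in all negative libraries, and at 111 and 139.6 in PND8 Ki67-positive and 74.8 and 98.6 in Repop Ki67-positive cells. It was higher in positive than negative cells by 3.63 ± 0.19 in PND8 and 2.99 ± 0.19 in Repop (edgeR, adjusted p = 2.73e-07 and 2.6e-06). Aspm, a spindle-pole protein, was also highest in the positive libraries: it was at 1.16 and 1.59 CPM in Adult, 25.3 to 35.7 in the negative and 168 to 310.0 in the positive libraries, with a PND8 difference of 3.16 ± 0.20 (adjusted p = 1.71e-06).

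S phase genes were higher than in Adult as well, but with the opposite order by sort. The 13 are Mcm2, Mcm6, Cdc6, Prim1, Clspn, Rrm2, Tyms, Ccne2, Hells, E2f8, Dscc1, Chaf1b and Uhrf1, which license origins, make nucleotides, control the step into S phase or assemble and mark new chromatin. All 13 were higher than in Adult in each of the 4 groups, with medians of 2.58 in PND8 Ki67-positive, 3.93 in PND8 Ki67-negative, 2.97 in Repop Ki67-positive and 3.34 in Repop Ki67-negative cells. Shares of all tested genes called higher were 25.1%, 25.4%, 23.9% and 21.5% in the same order. Compared with negative cells, 10 were lower in PND8 positive cells (median -0.87) and 4 in Repop positive cells (median -0.48), and edgeR called 0 higher in either setting, at an unadjusted p under 0.05 as well. Shares of all tested genes called lower in positive cells were 3.15% in PND8 and 0.867% in Repop. The count of 10 rested on single libraries: it was 6 without the second PND8 Ki67-negative, 5 without the first and 4 without the second PND8 Ki67-positive library. The count of 4 in Repop was 1 without the second Repop Ki67-negative or the first Repop Ki67-positive library. H3K27ac was called in both libraries at 12 of the 13 promoters in each PND8 group and at 10 in Repop, 7 in cuprizone Ki67-positive and 2 in cuprizone Ki67-negative cells. Over all H3K4me3-only promoters the shares were 16.9% in PND8 Ki67-negative and 23.3% in PND8 Ki67-positive cells. They were 18.1% in Repop, 13.2% in cuprizone Ki67-positive and 5.91% in cuprizone Ki67-negative cells.

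Mcm6, a subunit of the replicative helicase, was at 21.5 and 23.7 CPM in Adult, 216 and 216 in PND8 Ki67-negative, 102 and 103 in PND8 Ki67-positive, 122 and 172 in Repop Ki67-negative and 78.8 and 119 in Repop Ki67-positive cells. The PND8 groups did not overlap, with positive below negative by -1.07 ± 0.17 (log2, SE; edgeR, adjusted p = 0.00173), and the Repop difference was -0.57 ± 0.17 (adjusted p = 0.102). H3K27ac at its promoter did not share that order: 62.7 and 80.5 tags in PND8 Ki67-positive and 45.4 and 81.4 in PND8 Ki67-negative cells overlapped. Cdc6, which loads the helicase at origins, was at 0.925 and 0.855 CPM in Adult, 25.9 and 26.7 in PND8 Ki67-negative and 6.17 and 6.70 in PND8 Ki67-positive cells, a difference of -2.03 ± 0.23 (adjusted p = 0.000173). Its promoter had 38.2 and 76.0 tags in positive and 14.8 and 22.5 in negative cells, the opposite order to its RNA. Rrm2, a subunit of ribonucleotide reductase, was at 1.504 and 1.34 CPM in Adult and 89.4 to 158 CPM in the other 8 libraries, which overlapped across sorts.

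**Figure D4:**
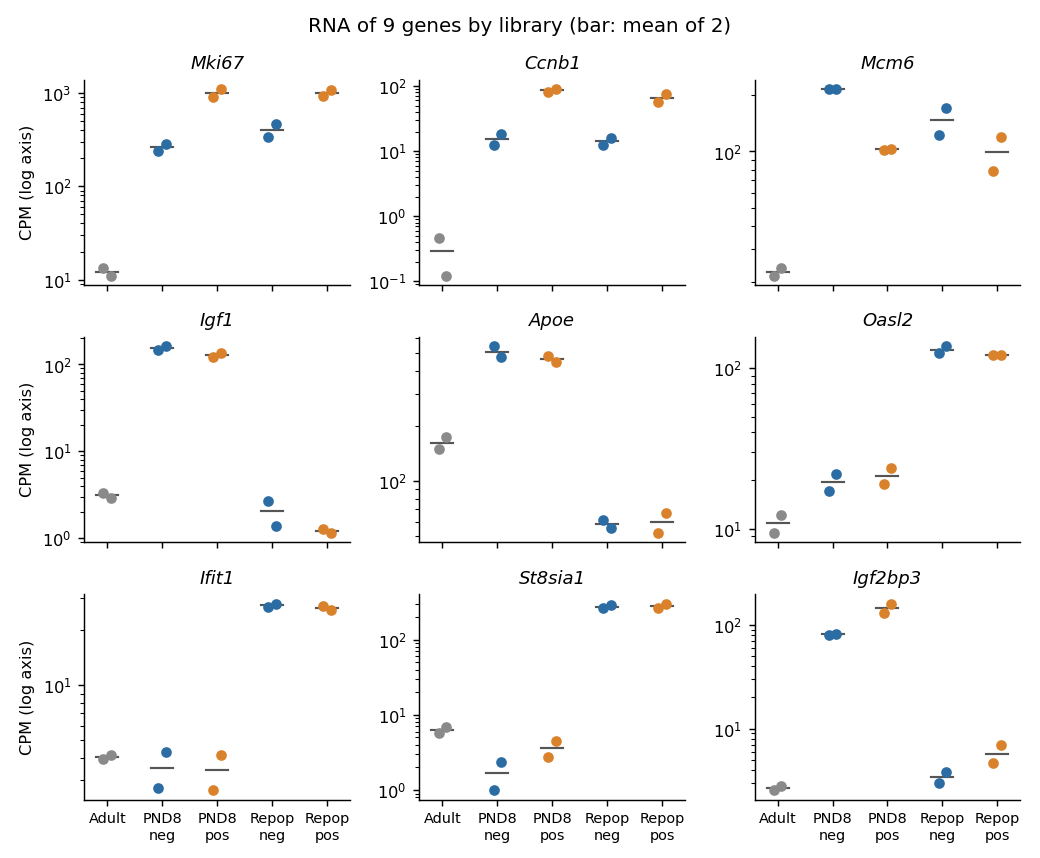
RNA level in CPM on a log axis for 9 genes of the set, with 1 point per library and a bar at the mean of the 2 libraries of each of the 5 RNA groups named on the x axis. Ccnb1 is highest in both positive groups, Igf1 is above 120 CPM only in PND8, and St8sia1 is above 260 CPM only in Repop.

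Interferon-response genes of the set rose mainly in Repop. The 8 are Rsad2, Oasl2, Oas1a, Cmpk2, Ifit1, Ifit2, Cxcl10 and Ifi27l2a, mostly antiviral effectors and 1 chemokine. All 8 were higher in Repop than in Adult in both Ki67 groups (medians 3.17 and 3.40), and all 8 were higher in Repop than in PND8 among positive (median 2.40) and negative cells (2.83). Against Adult 4 were higher in PND8 Ki67-positive cells (median 0.88) and 5 in PND8 Ki67-negative cells (median 0.74), the latter 3 without the first adult or the second PND8 Ki67-negative library. Between positive and negative cells edgeR called 1 higher in PND8 and 0 in Repop, where 2 were lower at an unadjusted p under 0.05 and DESeq2 called 1 lower. By edgeR 2.75% of all tested genes were higher in PND8 positive cells and 1.87% in Repop positive cells. H3K27ac was called in both libraries at 7 of the 8 promoters in Repop, 6 in cuprizone Ki67-positive, 2 in cuprizone Ki67-negative, 2 in PND8 Ki67-positive and none in PND8 Ki67-negative cells. The shares of all H3K4me3-only promoters were 18.1%, 13.2%, 5.91%, 23.3% and 16.9% in the same order.

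Oasl2, an oligoadenylate synthetase-like protein, was at 9.37 and 12.2 CPM in Adult, 17.1 to 23.8 in the 4 PND8 libraries and 121 to 137 in the 4 Repop libraries. Repop lay above all other libraries without overlap, by 2.50 ± 0.15 over PND8 in positive cells (log2, SE; edgeR, adjusted p = 4.74e-08). Its H3K27ac was none and 122 tags in cuprizone Ki67-negative, 138 and 247 in cuprizone Ki67-positive, none and 16.6 in PND8 Ki67-negative, 28.9 and 50.1 in PND8 Ki67-positive and 38.8 and 63.6 in Repop cells. The peaks of the second cuprizone Ki67-negative and both cuprizone Ki67-positive libraries were thus the highest, while the first cuprizone Ki67-negative library had none. No RNA of cuprizone was analysed here. Ifit1, which binds foreign RNA, was at 2.64 to 4.31 CPM in Adult and PND8 and 25.9 to 28.04 in Repop, a difference of 2.97 ± 0.25 between positive cells (adjusted p = 1.41e-06). Rsad2, an antiviral enzyme, was at 2.43 and 4.52 CPM in Adult, 8.17 to 10.6 in PND8 and 45.3 to 80.2 in Repop. Oas1a was at 4.28 and 5.87, 9.53 to 19.4 and 64.0 to 84.1 CPM, and its reads may be split with its near-identical paralogs. Rsad2 and Oas1a were named after their values were seen.

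Genes of disease-associated or neonatal activation went separate ways in PND8 and Repop. Of the 8 (Igf1, Lpl, Fabp5, Lgals3, Apoe, Fn1, Ch25h and Axl), 3 were higher and 5 lower in Repop than in PND8, in positive and in negative cells alike. H3K27ac was called in both libraries at 6 of the 8 promoters in PND8 Ki67-positive, 4 in PND8 Ki67-negative, 3 in Repop, 8 in cuprizone Ki67-positive and 6 in cuprizone Ki67-negative cells. The shares of all H3K4me3-only promoters were 23.3%, 16.9%, 18.1%, 13.2% and 5.91% in the same order. The summed border macrophage markers were also highest in PND8, 607 to 859 CPM, and their part in these results was not tested.

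Igf1, a growth factor, was at 3.35 and 2.93 CPM in Adult, 145 and 161 in PND8 Ki67-negative, 120.4 and 136 in PND8 Ki67-positive, 2.71 and 1.37 in Repop Ki67-negative and 1.27 and 1.15 in Repop Ki67-positive cells. PND8 stood apart from all other groups, and Repop positive cells were below PND8 positive cells by -6.70 ± 0.21 (log2, SE; edgeR, adjusted p = 1.34e-10). Its promoter had H3K27ac in all PND8 libraries (137 to 259.7 tags) and all cuprizone libraries (205 to 467 tags) and in no Repop library. Apoe had the same layout, with 446 to 543 CPM in PND8 and 52.1 to 66.9 in Repop against 149 and 173 in Adult. Repop positive cells were below PND8 positive cells by -2.97 ± 0.13 (edgeR, adjusted p = 2.45e-09), and H3K27ac was called at 379 to 545 tags in PND8, at 208 to 671 tags in cuprizone and in neither Repop library.

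Axl, a receptor for dying cells, was at 37.0 and 41.9 CPM in Adult, 78.8 to 142 in PND8 and 392 to 561 in Repop, with the groups apart and a Repop excess over PND8 positive cells of 1.83 ± 0.21 (edgeR, adjusted p = 2.69e-05). Its H3K27ac was 292 and 231 tags in Repop and 19.6 and 53.2 in PND8 Ki67-positive cells. Ch25h, which makes an oxysterol, was at 0 to 1.74 CPM in Adult and PND8 and 22.4 to 43.6 in Repop, and its promoter had 442 and 663 tags in Repop against 21.1 and 25.8 in PND8 Ki67-positive cells. Lpl, a lipase, was acetylated in all 10 libraries and was higher than Adult in every group: 48.5 and 46.3 CPM in Adult, 347 to 557 in PND8 and 124.7 to 167 in Repop.

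Where H3K27ac was gained in one setting and not the other, the genes called were mostly higher in the setting with the mark. The 41 promoters acetylated in both Repop and in neither PND8 Ki67-positive library served 42 genes (39 tested), of which 27 were higher and 1 lower in Repop than PND8 positive cells, with a median of 1.64. The 58 promoters with the reverse pattern served 59 genes (53 tested), of which 1 was higher and 25 lower, with a median of -1.47. The 402 promoters acetylated in all 4 libraries served 429 genes, 57 higher and 61 lower (median -0.03), and the 1749 acetylated in none served 1759 genes, 112 higher and 108 lower (median -0.11). The count of 25 was 16 without the second Repop Ki67-positive library. The pair of 57 and 61 was 37 and 46 without the first PND8 Ki67-positive library, 37 and 38 without the second, and 44 and 33 without the first Repop Ki67-positive library. The pair of 112 and 108 was 81 and 66, 67 and 84, 67 and 63, and 85 and 60 without the first or second PND8 and the first or second Repop Ki67-positive library. Of all tested genes 16.7% were higher and 14.2% lower. H3K27ac and RNA of a setting came from separate mice, of different genotype label and, in Repop, different age.

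**Figure D5:**
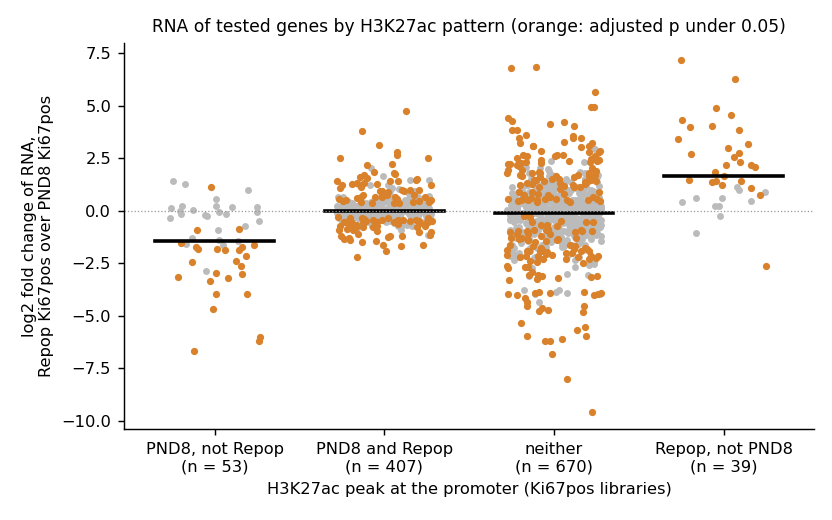
Log2 difference in RNA between Repop and PND8 Ki67-positive cells (y axis, values above 0 are higher in Repop) for tested genes of H3K4me3-only promoters, grouped on the x axis by where H3K27ac was called in both libraries of one setting, of both or of neither. Points are genes (53, 407, 670 and 39 from left to right), orange where the adjusted p was under 0.05, and black lines are medians. Medians are -1.47 for PND8 and not Repop, -0.03 for both, -0.11 for neither and 1.64 for Repop and not PND8.

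St8sia1, a sialyltransferase that makes gangliosides, was at 5.67 and 6.97 CPM in Adult, 0.990 to 4.51 in PND8 and 264 to 299.8 in Repop. Repop lay above all other libraries, by 6.29 ± 0.20 over PND8 in positive cells (log2, SE; edgeR, adjusted p = 1.34e-10), while Ki67-positive and Ki67-negative Repop cells overlapped. H3K27ac at its promoter was called in Repop alone, at 216 and 259.7 tags. Alcam, an adhesion molecule, was at 0.441 to 1.27 CPM in Adult and PND8 and 9.06 to 24.5 in Repop, where its promoter had 105 and 56.2 tags. It also had 21.7 and 83.8 tags in the second cuprizone Ki67-negative and Ki67-positive libraries.

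Igf2bp3, a fetal RNA-binding protein, showed the reverse, with 2.55 and 2.81 CPM in Adult, 80.2 and 81.6 in PND8 Ki67-negative, 129.3 and 160.2 in PND8 Ki67-positive and 3.02 to 6.91 in Repop. Repop positive cells were below PND8 positive cells by -4.67 ± 0.18 (log2, SE; edgeR, adjusted p = 7.76e-10), and H3K27ac was called in the 4 PND8 libraries alone, at 153 to 322 tags. Lin28b, which blocks let-7 maturation, was at 4.52 to 5.94 CPM in PND8 and at most 0.152 in all other libraries, with PND8 H3K27ac of 45.9 to 58.7 tags and an H3K4me3 height of only 31.9 and 20.9 tags in Adult. Across the set, 12 promoters had H3K27ac in all 4 PND8 libraries and in no other, 10 in both Repop libraries and in no other, and 4 in all 4 cuprizone libraries and in no other. The 4 of cuprizone were those of Lgals3, a galectin, Vegfa, a vascular growth factor, Sec14l2, a lipid-binding protein, and Chst2, a sulfotransferase, with 78.0 to 136 tags at Lgals3 and 14.0 to 132 at Vegfa.

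Genes without H3K27ac at the listed promoter in any library were not all silent. RNA that starts at other promoters of these genes was not told apart. Hlf, a clock-related transcription factor, was at 59.2 and 54.0 CPM in Adult, 2.20 to 4.46 in PND8 and 7.20 to 10.8 in Repop. Adult lay above all others, with PND8 Ki67-positive cells lower by -4.50 ± 0.28 (log2, SE; edgeR, adjusted p = 2.77e-08), and its gene body carried adult H3K27ac. Gpx3, a secreted peroxidase, was at 1.97 and 0.367 CPM in Adult, 109 to 131 in PND8 and 19.05 to 33.0 in Repop, higher in PND8 Ki67-positive cells by 6.68 ± 0.27 (adjusted p = 7.89e-10). Spock1, a matrix proteoglycan, was at 1.16 and 1.10 CPM in Adult, 0.184 to 0.551 in PND8 and 43.5 to 69.9 in Repop, where positive cells exceeded Adult by 5.36 ± 0.26 (adjusted p = 4.25e-09).

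Developmental transcription factors mostly stayed unacetylated. Of their 124 genes, 119 had no H3K27ac in any library, and adult ATAC peaks were called at 67 of the 124, PND8 Rpb2 peaks at 6. Among all H3K4me3-only promoters, 59.7% had no H3K27ac in any library, 64.6% had adult ATAC peaks and 28.8% PND8 Rpb2 peaks. The trait was shared: 95 of 110 ion channel and synapse genes and 64 of 77 developmental signalling genes also had no H3K27ac in any library. Of the 124, 12 had enough counts to be tested for RNA. Of these, 4 were higher and 2 lower in PND8 Ki67-positive cells than in Adult, but 1 and 1 without the first adult and 2 and 0 without the first PND8 Ki67-positive library. Of all tested genes 25.1% were higher and 24.3% lower in PND8 Ki67-positive cells than in Adult. Hey2, with 473.7 and 487 H3K4me3 tags, had 0 to 0.122 CPM in all 10 libraries, at or below 1 count. Sox13, with 564 and 504 tags, was at 8.91 and 12.1 CPM in Adult, 28.2 and 26.1 in PND8 Ki67-negative, 17.95 and 16.3 in PND8 Ki67-positive and 6.19 to 8.67 in Repop, and was higher in PND8 Ki67-negative cells than in Adult by 1.37 ± 0.21 (edgeR, adjusted p = 0.000146). Both genes were named after their values were seen.

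Among zinc finger genes more were called lower than higher against Adult, though most were not called. Of 68 in the set, 54 were tested, and in PND8 Ki67-positive cells 3 were higher and 25 lower than in Adult (median -0.64), in PND8 Ki67-negative 4 and 21 (-0.53), in Repop Ki67-positive 2 and 19 (-0.61) and in Repop Ki67-negative 1 and 18 (-0.41). Of all tested genes 24.3%, 21.4%, 21.0% and 17.6% were lower in the same order. The first count of lower genes was 14 without the second PND8 Ki67-positive library, and the last was 8 of 56 tested without the second Repop Ki67-negative and 11 without the first adult library. The third was 11 without the first adult library, and 12 without either Repop Ki67-positive library. Clustered protocadherins gave 17 genes, of which 15 of the gamma cluster share constant exons, so their counts cannot be told apart. The 11 imprinted genes had no H3K27ac in any library, although 7 had enough RNA to be tested. Mest, an imprinted hydrolase, was at 8.10 and 8.80 CPM in Adult, 8.55 to 13.2 in PND8 and 4.27 to 4.74 in Repop, and Repop negative cells were lower than PND8 negative cells by -1.46 ± 0.25 (edgeR, adjusted p = 0.00057).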

How the data were processed

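RNA counts were deposited by the authors as raw whole-number counts per gene from HOMER (4.11), and the submitters' processing notes name STAR (2.7.0f), Bowtie2 (2.3.4.1) and DESeq2, on mm10 and GRCm38. A TPM table was also deposited by the authors, made with HOMER per the file headers, and served for 1 alternative. Peak lists were made by the authors per library with HOMER, per the file headers, and give a signal per peak in tags per 10000000, a fold ratio over input and p-values, as deposited. Values exist only where a peak was called, and peaks differ in width. The PND8 Rpb2 list was called against an H3K27ac input, per the file headers. In the H3K27ac lists the header names are displaced, and columns were read by their position.

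The members and gene lists were chosen with earlier results of these data known. From the files, promoters were selected by overlap of at least 1 bp and a TSS within 1 kb. RNA was tested with edgeR (4.0.16, quasi-likelihood, TMM scaling, filterByExpr) in 1 fit of 5 groups of 2 libraries with 8 comparisons, with Benjamini-Hochberg adjustment and a threshold of 0.05. The fitting procedure was also run on simulated counts with a fixed spread and no effect of header code or replicate number. That run does not check the calls made in these data. Errors are standard errors of the log2 difference. CPM are counts scaled by the library size after the filter, multiplied by the TMM factor of the library. They are given per kb of the listed transcript where stated. A floor of 3 counts was used where a group was at 0. Intervals of peak shares are not given, since each library has its own list.

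Genes were named by rule: the 10 with the highest adult RNA per kb, the 6 largest rises and falls against Adult and the 4 largest in other comparisons with libraries that do not overlap and a mean of at least 5 CPM, up to 12 with H3K27ac in all 10 libraries, up to 4 per single setting, up to 15 that gained H3K27ac and RNA in both PND8 and Repop, 5 with adult Rpb2, up to 4 per gene list, those at the edges of the rule, and Mki67. Names added after their values were seen are marked in the text. Alternatives were DESeq2 (1.42.0), library-size scaling, no filter, a fold of at least 2, a replicate block, the header code as a term, each library left out, and stricter or looser peak overlap, with peaks at 8-fold over input. Promoter sequences are RefSeq's on GRCm38.p6.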

Additional observations from a re-analysis of the deposited data

How the results depend on the processing

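Of the alternatives run on comparisons and counts, 99 gave a count within 1.5 times of the reported one, 22 a count smaller than that and 11 a larger one. No call of a named gene changed sign. The balance of higher and lower genes did turn between PND8 sorts and between Repop and PND8 positive cells, as given with those counts. With a fold of at least 2, 24 genes were higher and 1 lower between PND8 sorts, and 103 and 98 between Repop and PND8 negative cells. Requiring a fold of at least 2 left 337 of 804 genes called in PND8 Ki67-positive against Adult, 316 of 809 in PND8 Ki67-negative, 290 of 722 in Repop Ki67-positive and 261 of 681 in Repop Ki67-negative cells. It left 25 of 169 between PND8 sorts, 17 of 77 between Repop sorts, and 155 of 552 and 201 of 641 between Repop and PND8 in positive and negative cells. With no filter on low counts 265 genes differed between PND8 sorts and 144 between Repop sorts, and with the code from the headers added to the fit 298 and 179. With single libraries left out, the counts were 630 to 641, 613 to 774, 532 to 585 and 490 to 551 against Adult, 67 to 180 between PND8 sorts, 36 to 65 between Repop sorts, and 352 to 397 and 419 to 622 between settings in positive and negative cells.

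Replicate numbers were not stated to pair the libraries, and deviations of same-numbered libraries correlated at 0.338 in PND8, 0.263 in Repop and -0.008 to 0.097 otherwise. With the replicate number as a block, 136 genes of the set differed between Repop sorts and 235 between PND8 sorts. DESeq2 called 157 between PND8 sorts and 95 between Repop sorts.

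Keeping members with H3K4me3 of at least the median height of the peak list left 745 members. Promoters with H3K27ac in both libraries were 70 in cuprizone Ki67-negative, 241 in cuprizone Ki67-positive and 269 in PND8 Ki67-negative cells with 50% overlap. With peaks at least 8-fold over input they were 16 in cuprizone Ki67-negative, 49 in cuprizone Ki67-positive, 194 in PND8 Ki67-negative, 320 in PND8 Ki67-positive and 49 in Repop cells. In either library they were 624, 834 and 857 in cuprizone Ki67-negative, cuprizone Ki67-positive and Repop cells. With 1 library alone they were 177 to 611, 377 to 824, 517 to 641, 669 to 868 and 559 to 800 in cuprizone Ki67-negative, cuprizone Ki67-positive, PND8 Ki67-negative, PND8 Ki67-positive and Repop cells. Of 597 calls of named genes, 349 held under every alternative run for them, and 100 of the 248 others were lost with the fold minimum alone. Depth limits genes near 1 count, and ATAC and PND8 Rpb2 had 1 library per group.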
